A study of Homo sapiens with 2 samples.

Results

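The 10 genes described here encode the 6 proteins of shelterin (TERF1, TERF2, TERF2IP, POT1, TINF2 and ACD) and 4 protein components of telomerase (TERT, DKC1, NOP10 and NHP2). They were chosen by gene name out of 20263 genes in the deposited table, and they have 64 transcript entries there, from 2 for NOP10 to 13 for POT1. The table holds RNA-seq values of H9, a human embryonic stem cell line in long-standing use. One library came from cells treated for 48 h with small interfering RNA against HNRNPA1 (siHNRNPA1), the gene of the RNA-binding protein hnRNP A1, and the other from cells treated with a control small interfering RNA (sicontrol). Each condition had 1 library, so no difference below has a replicate check, no test was possible and no p-value is given.

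Telomeres are repeats of TTAGGG at chromosome ends. Shelterin covers them: TERF1 and TERF2 bind the double-stranded repeat, POT1 binds the single-stranded overhang, and TINF2 and ACD (TPP1) join them. Telomerase lengthens the repeat. Its reverse transcriptase is TERT, and dyskerin (DKC1), NOP10 and NHP2 form the H/ACA core that holds the telomerase RNA and also serves small nucleolar RNAs. Pluripotent stem cells keep telomerase active, and hnRNP A1 itself can bind telomeric repeats and the telomeric transcript TERRA. The RNA component TERC was not analysed here.

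The splice choices shown first are those that differed by 20 percentage points or more among choices with at least 5 FPKM in both libraries (for TINF2, 1 of its 3), joined by the exon end that sets apart 2 TERF2 forms of differing share. They are given as they appear in the annotated transcripts (GENCODE release 29, GRCh38). Each pair gives the transcript that keeps a stretch, then the transcript that lacks it, 5′ to 3′. Capitals mark the kept stretch, whole for ACD and its first 12 bases for the others, and the 24 bases before it are the end of the shared exon. In ACD, acceptor sites 9 bases apart (chr16:67660037-67660045, minus strand) add or leave out a short in-frame coding stretch.
ACD-214: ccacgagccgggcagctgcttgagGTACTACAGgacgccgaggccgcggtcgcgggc
ACD-201: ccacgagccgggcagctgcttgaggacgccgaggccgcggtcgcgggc
A second choice of acceptor in ACD (chr16:67657815-67657853, minus strand) concerns 39 coding bases.
ACD-214: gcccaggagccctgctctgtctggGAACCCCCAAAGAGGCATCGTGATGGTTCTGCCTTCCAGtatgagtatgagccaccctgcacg
ACD-203: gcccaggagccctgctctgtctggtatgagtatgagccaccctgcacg
In TINF2 the long-tailed form splices out an intron of 88 bases (chr14:24240331-24240418, minus strand) that the short form keeps.
TINF2-202: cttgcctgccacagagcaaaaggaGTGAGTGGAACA
TINF2-201: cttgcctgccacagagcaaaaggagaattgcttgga
In DKC1 a transcript keeps an intron of 489 bases (chrX:154774706-154775194, plus strand), which also holds the small nucleolar RNA gene SNORA56.
DKC1-213: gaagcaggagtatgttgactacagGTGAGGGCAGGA
DKC1-201: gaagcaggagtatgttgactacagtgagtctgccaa
In TERF2 the last exon of one transcript runs on past the donor site into the intron (chr16:69364967-69366806, minus strand).
TERF2-211: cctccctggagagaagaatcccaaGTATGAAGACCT
TERF2-201: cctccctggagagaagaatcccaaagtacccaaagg
In TINF2-202 and DKC1-213 the retained intron contributes 1 coding base before a TGA stop codon, so that the stop is read within the donor sequence GTGAG in both. In TERF2-211 the intron contributes 70 coding bases before TGA.

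The labels were checked first. HNRNPA1 had 179.9 FPKM after siHNRNPA1 and 663 after sicontrol, 27.1% of the control level. The 5 pluripotent cell markers checked (POU5F1, SOX2, NANOG, LIN28A and DPPA4) had from 18.0 to 1355 FPKM in the 2 libraries. They differed between the libraries: DPPA4 after siHNRNPA1 was at 34.3% of its level after sicontrol (log2 fold -1.54), SOX2 at 46.2% (-1.10), NANOG at 79.6%, LIN28A at 99.2% and POU5F1 at 157%. The part of these marker differences in the values below was not tested. Of 5 fibroblast markers, DCN and LUM were listed at 0 in both. COL1A1 and COL1A2 had from 8.38 to 25.0 FPKM, and THY1 had 181 after siHNRNPA1 and 233 after sicontrol. In bulk RNA, fewer cells of a type and less RNA per cell cannot be told apart. The libraries held 28147828 (siHNRNPA1) and 26680342 (sicontrol) estimated counts.

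At the level of whole genes none of the 10 reached 2-fold with a pseudocount of 1 FPKM, while POT1 did with one of 0.1 FPKM and in CPM, and POT1 and TERF2IP did in TPM. FPKM (fragments per kilobase of transcript, scaled to library depth) was summed over a gene's transcripts, and folds are log2((siHNRNPA1 + 1)/(control + 1)). A gene was counted from 2-fold on if its mean FPKM was at least 1, which all 10 reached. Of all 11921 genes kept, 21.9% were lower by 2-fold or more after siHNRNPA1 and 12.4% were higher, against 0 of 10 in either direction here. The median fold was -0.14 over the 10 genes and -0.13 over all genes. By role, the 6 shelterin genes had a median of -0.63 (from -0.98 to 0.27) and the 4 telomerase genes one of 0.36 (from -0.29 to 0.81). Once genes of like composition and length were subtracted, as described below, these medians were -0.24 and -0.04.

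Among the proteins that bind the double-stranded repeat, TERF1 (ENSG00000147601, chromosome 8, 73008864 to 73048122) was the most abundant shelterin gene in both libraries. It had 97.7 FPKM after siHNRNPA1 (95% counting interval 95.7 to 99.7) and 168 FPKM after sicontrol (165 to 171), a log2 fold of -0.78. TERF2 (ENSG00000132604, chromosome 16, 69355561 to 69408571) was close to even, with 12.8 FPKM (11.996 to 13.6) and 11.5 FPKM (10.8 to 12.3). Its fold was 0.14 by FPKM and -0.0040 by TPM. Its partner TERF2IP (RAP1, chromosome 16, 75647786 to 75761872), which TERF2 brings to telomeres, had 5.49 FPKM (4.94 to 6.09) and 10.4 FPKM (9.62 to 11.2), a log2 fold of -0.81. Here the 2 counting intervals lie far apart for TERF1 and TERF2IP and overlap for TERF2. The interval of the TERF2 count ratio ran from 0.03 to 0.295 on the log2 scale and so left out 0. The counting intervals treat estimated counts as independent reads and cover counting error only. Those of levels scale the interval of a gene's total count to its FPKM. They are too narrow where transcripts of unlike length make up a gene, as in POT1.

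Of the bridging and single-strand binding proteins, POT1 (ENSG00000128513, chromosome 7, 124822386 to 124929983) was the least abundant gene of the 10 in both libraries, at 2.16 FPKM (1.77 to 2.61) after siHNRNPA1 and 5.21 FPKM (4.77 to 5.69) after sicontrol. Its level after siHNRNPA1 was 41.4% of that after sicontrol, a log2 ratio of -1.27 with no pseudocount. The log2 fold was -0.98 with the pseudocount of 1 FPKM, -1.23 with one of 0.1 FPKM and -1.24 in TPM, so that whether it passed 2-fold depended on the pseudocount. In estimated counts it stood at 108 and 509, a log2 fold of -2.05 in counts scaled to the library total (CPM), which take no account of transcript length. TINF2 (chromosome 14, 24239643 to 24242674) had 5.15 FPKM (4.62 to 5.73) and 7.61 FPKM (6.95 to 8.32), a log2 fold of -0.49. ACD (chromosome 16, 67657512 to 67660815) was the shelterin gene with the highest fold, 0.27, with 26.0 FPKM (24.7 to 27.3) and 21.3 FPKM (20.2 to 22.5), although the sign of its fold turned once genes of like composition were subtracted (-0.40).

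The catalytic subunit TERT (ENSG00000164362, chromosome 5, 1253147 to 1295069) differed by less than its counting interval, with 7.67 FPKM (7.19 to 8.16) after siHNRNPA1 and 7.62 FPKM (7.13 to 8.13) after sicontrol. The interval of its count ratio ran from -0.08 to 0.19 on the log2 scale. DKC1 (ENSG00000130826, chromosome X, 154762742 to 154777689), the pseudouridine synthase of the H/ACA core, had 54.1 FPKM (52.6 to 55.7) and 66.4 FPKM (64.5 to 68.3), a log2 fold of -0.29. The small subunits were both higher. NOP10 (chromosome 15, 34341713 to 34343177) had 279 FPKM (272 to 287) and 158 FPKM (152 to 164), a log2 fold of 0.81. NHP2 (chromosome 5, 178149460 to 178153967) had 289 FPKM (282 to 295) and 175 FPKM (170 to 181), a log2 fold of 0.72. Within the H/ACA core DKC1 was thus lower and NOP10 and NHP2 were higher by FPKM, but after the subtraction described below all 3 were near 0, at -0.04, 0.09 and -0.05.

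**Figure D1:**
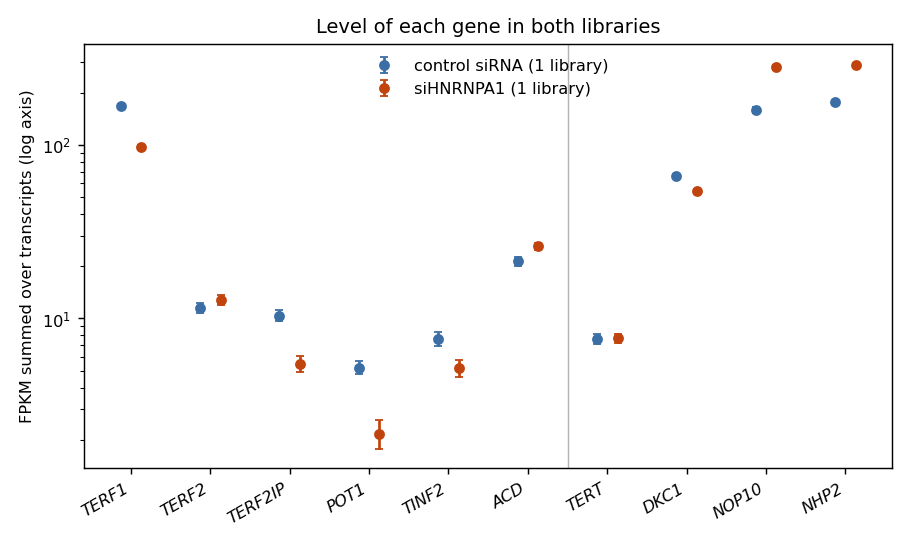
FPKM of each gene (log axis) in the siHNRNPA1 and control libraries, 1 point per library with bars for the 95% counting interval, shelterin genes left of the grey line. NHP2 and NOP10 are the highest genes after siHNRNPA1, at 289 and 279 FPKM, and POT1 is the lowest in both libraries.

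Ordered by FPKM, which is per length, the siHNRNPA1 library ran NHP2, NOP10, TERF1, DKC1, ACD, TERF2, TERT, TERF2IP, TINF2 and POT1. The counting intervals of the neighbours NHP2 and NOP10 overlapped, as did those of TERF2IP and TINF2. In the control library TERF1 stood between NHP2 and NOP10, and TERF2IP stood above TERT. There the intervals of NHP2 and TERF1, of TERF2 and TERF2IP, and of TERT and TINF2 overlapped.

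Folds between these libraries varied with the GC content and the length of transcripts. Spearman's rho between fold and GC content was 0.58, and between fold and length -0.46, across 11916 genes, which do not count as replicates. Each gene was therefore also set against the 100 genes most like it in expression and in the GC content and length of its leading transcript, and their median fold was subtracted. With this subtraction 8.35% of all genes stood 2-fold or more below 0 and 8.11% above, and again none of the 10. POT1, whose leading transcript has 37.6% GC, went from -0.98 to 0.01, and TERF1 (38.1% GC) from -0.78 to -0.08. NOP10 went from 0.81 to 0.09 and NHP2 from 0.72 to -0.05, with leading transcripts of 554 and 865 bases. TERF2IP moved the other way, to -0.99, and TINF2 to -0.77, which makes them the genes farthest from their nearest genes. TERT stood at -0.51 and ACD at -0.40 by this measure, DKC1 at -0.04 and TERF2 at 0.33. The part of base composition and length in these folds was not tested beyond this subtraction.

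**Figure D2:**
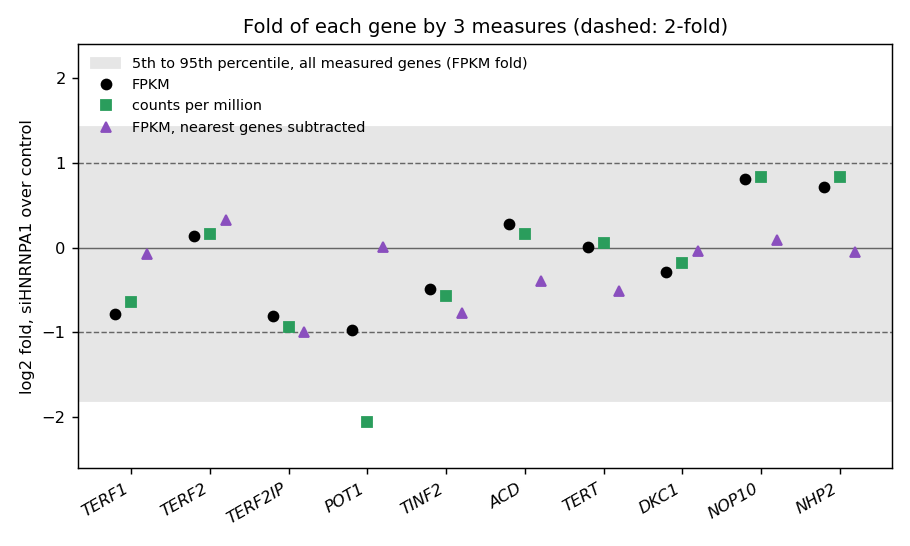
Log2 fold of each gene between the libraries by FPKM (circles), CPM (squares) and FPKM after subtraction of the nearest genes (triangles), with the 5th to 95th percentile of all measured genes in grey and 2-fold dashed. POT1 at -2.05 in CPM is the only point beyond 2-fold, while TERF2IP lies between -0.81 and -0.99 by all 3 measures.

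The folds of single transcripts with a mean of at least 1 FPKM ran from -2.45 to 3.03, and those of the 10 genes from -0.98 to 0.81. Of the 64 transcript entries 6 were listed at 0 in both libraries and 27 had a mean FPKM of at least 1. Of these, 8 were lower by 2-fold or more after siHNRNPA1 and 4 were higher (29.6% and 14.8%), against 23.4% and 21.3% of all 24624 transcripts kept. The lower ones were TERF1-203, POT1-201, TINF2-202, ACD-201, ACD-203, DKC1-213, DKC1-203 and DKC1-204, and the higher ones TERF2-211, ACD-215, ACD-202 and NOP10-202. A transcript with less than 1 FPKM in one library passed the minimum only through the other, so these counts describe the entries and support nothing further. Of the 9 genes with at least 5 FPKM in both libraries, 4 (ACD, DKC1, TERF2 and TINF2) each had a transcript whose share of the gene's FPKM differed by 20 percentage points or more. The corresponding share of all 5715 such genes was 40.6%, so a difference of this size was common in these libraries.

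In ACD several forms differed. ACD-215, which starts within the first exon of ACD-214, had 9.06 FPKM after siHNRNPA1 and 0.231 after sicontrol (log2 fold 3.03), or 34.9% and 1.08% of the gene. Its listed position differs from that in GENCODE release 29, from which its exons and coding part were taken. ACD-202 had 7.47 and 1.74 FPKM. ACD-201 went in the opposite direction, with 0.832 and 7.16 FPKM, and ACD-203 was listed at 0 after siHNRNPA1 and had 4.45 FPKM after sicontrol. ACD-214, the form with the longest coding part (544 residues, known as TPP1-L), was the steadiest, at 6.59 and 7.73 FPKM. The forms ACD-202 and ACD-215 encode 458 residues, ACD-201 encodes 455 and ACD-203 442.

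The ACD forms sort by the 9-base acceptor choice shown above. The 3 forms that keep the 9 bases (ACD-202, ACD-214 and ACD-215) held 96.5% of the FPKM over this choice after siHNRNPA1 and 45.5% after sicontrol. In estimated counts this was 1386 of 1443 (96.0%, exact Clopper-Pearson interval 94.9% to 97.0%) and 613 of 1262 (48.6%, 45.8% to 51.4%). Of the 1386 counts, 445 were those of ACD-215, whose listed position differs from the annotation. For the 39-base choice, the forms with the stretch held 100% after siHNRNPA1 and 79.1% after sicontrol, where ACD-203 had 194 counts. In counts the second of these shares was 84.6% (82.5% to 86.6%), so that the difference was 15.4 points, under the 20 used below. Both choices thus stood further toward the longer exon after siHNRNPA1. The 3′ end of ACD overlaps CARMIL2 on the opposite strand, and no source used here says whether the counting used strand.

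TINF2 is known for a short form, TIN2S, and a longer one, TIN2L. TINF2-202, with the 354 residues of TIN2S, had 2.21 FPKM after siHNRNPA1 and 6.27 after sicontrol, or 42.9% and 82.4% of the gene. TINF2-201, with the 451 residues of TIN2L, had 1.82 and 0.967 FPKM, or 35.3% and 12.7%. The short form was lower and the long form higher, so that the 2 were near each other after siHNRNPA1 and far apart after sicontrol. They were not the only forms. TINF2-208 and TINF2-215, each of 140 residues, had 38 and 21 counts after siHNRNPA1, or 11.7% and 7.18% of the gene. Both were listed at 0 after sicontrol. TINF2-208 counts among the retained forms below, so that their share is not TIN2S alone. Over the intron of 88 bases shown above, the retained forms held 56.2% after siHNRNPA1 and 82.4% after sicontrol, from 198 of 332 counts (59.6%, interval 54.1% to 64.96%) and 422 of 486 (86.8%, 83.5% to 89.7%). The 2 other introns of the TIN2S tail gave 56.2% and 56.3% against 82.4% and 87.3%. They rest largely on the same transcripts and are not independent of it.

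In DKC1, as in TINF2, a form with a retained intron held a smaller share after siHNRNPA1. DKC1-201, which encodes dyskerin of 514 residues, had 45.3 FPKM after siHNRNPA1 and 34.5 after sicontrol, while DKC1-213, which keeps the intron of 489 bases and encodes 420 residues, had 5.91 and 18.9 FPKM. The gene total was a little lower and the full-length form a little higher, at 83.7% of the gene after siHNRNPA1 and 52.0% after sicontrol. Over this intron the retained form held 11.5% and 35.4% of the FPKM, from 605 of 4476 counts (13.5%, interval 12.5% to 14.5%) and 1809 of 4565 (39.6%, 38.2% to 41.1%). DKC1-203, which uses an earlier donor site that leaves out 120 bases, had 1.76 and 7.72 FPKM.

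In TERF2 the full-length form TERF2-201 (542 residues) had 4.25 FPKM after siHNRNPA1 and 6.75 after sicontrol, or 33.3% and 58.5% of the gene. TERF2-211, whose last exon runs into the intron and whose 5′ end is incomplete in the annotation, had 6.35 and 1.86 FPKM, or 49.7% and 16.1%. The even total of TERF2 was thus made of a lower full-length form and a higher truncated entry. The incomplete form lacks the exons for the C-terminal Myb-type domain with which TERF2 binds telomeric DNA, which lies past this intron. TERF2 also overlaps AC026464.3 on the same strand at its 3′ end, listed at 0 after siHNRNPA1 and at 1.37 FPKM after sicontrol.

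**Figure D3:**
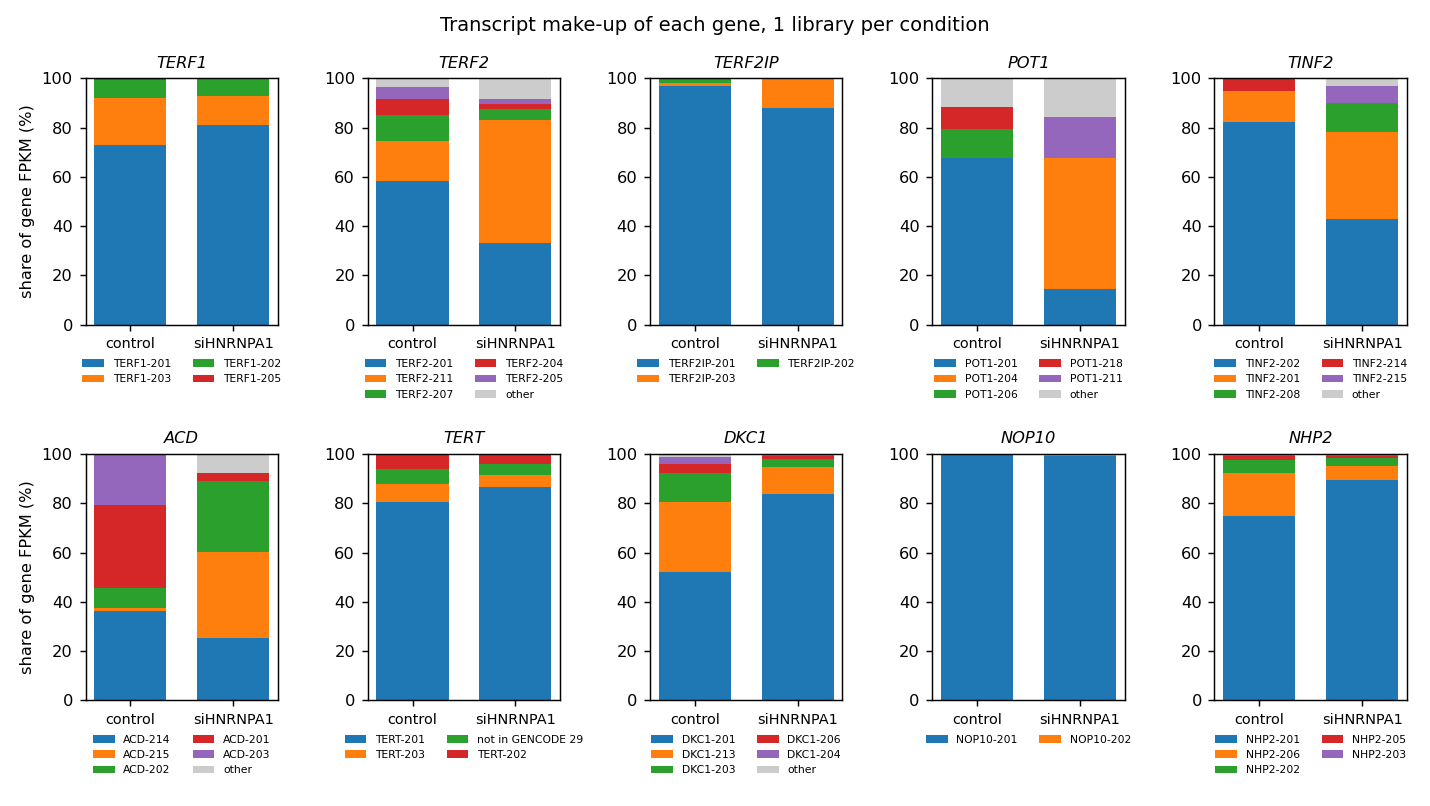
Share of each gene's FPKM by transcript in the control (left bar) and siHNRNPA1 (right bar) libraries, the 5 most abundant entries in colour and the rest in grey. ACD, TINF2, TERF2, DKC1 and POT1 change their leading forms or their proportions, while NOP10 is made of NOP10-201 alone to over 99% in both.

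POT1 fell short of 5 FPKM after siHNRNPA1 and is given as values only. Its full-length form POT1-201 (634 residues) had 0.312 FPKM there and 3.53 after sicontrol, from 43 and 446 counts, a log2 fold of -1.79. POT1-204, a fragment of 587 bases annotated as a target of nonsense-mediated decay, had 1.15 FPKM from 23 counts after siHNRNPA1 and was listed at 0 after sicontrol. The fold of the full-length form was thus further from 0 than that of the summed gene. The 5′ end of POT1 overlaps the antisense gene POT1-AS1.

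The 5 other genes had no transcript share that differed by 20 percentage points. TERF1 encodes TRF1 of 439 residues (TERF1-202) and PIN2 of 419 residues (TERF1-201), which differ by an exon of 60 bases. Inclusion of this exon was 7.86% of FPKM after siHNRNPA1 and 8.95% after sicontrol, from 376 of 8988 and 624 of 13034 counts, with both forms lower after siHNRNPA1. TERT-201, which encodes the full protein of 1132 residues, made up 86.5% and 80.4% of TERT. The 36-base acceptor choice of TERT, known as the alpha deletion when left out, kept the longer exon in 94.9% and 92.1%, and its exon of 189 bases, skipped in the gamma deletion, was kept in 90.6% and 85.7%. TERT-203, the only entry counted without the 36 bases, also skips the exon of 189 bases, so these shares are not independent. NHP2-201 made up 89.5% and 74.9% of NHP2, the 106-base exon that NHP2-202 skips being kept in 96.4% and 93.3%. NHP2 has annotated processed pseudogenes, as does TERF1, so that reads may be shared with copies, and its 3′ end overlaps RMND5B on the opposite strand (55.3 FPKM after siHNRNPA1 and 16.4 after sicontrol). NOP10-201 made up 99.3% and 99.8% of NOP10. TERF2IP-201 made up 88.1% and 96.8% of TERF2IP, whose 5′ end overlaps KARS on the opposite strand.

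Across the 26 annotated splice choices with at least 5 FPKM in both libraries, differences of 20 percentage points were limited to TINF2, ACD and DKC1. None of 7 cassette exons differed by that much, against 13.5% of all 7909 such choices. Of 7 retained introns 4 did (the 3 of TINF2 and that of DKC1), against 16.7%. The retained share was lower after siHNRNPA1 in all 4, and over all genes it was lower by 20 points for 8.31% of introns and higher for 8.4%. Of 7 alternative acceptors 2 did (both in ACD), against 13.4%, and none of 5 alternative donors, against 13.9%. The choices share transcripts, and how reads were divided between overlapping transcripts bears on all of them.

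**Figure D4:**
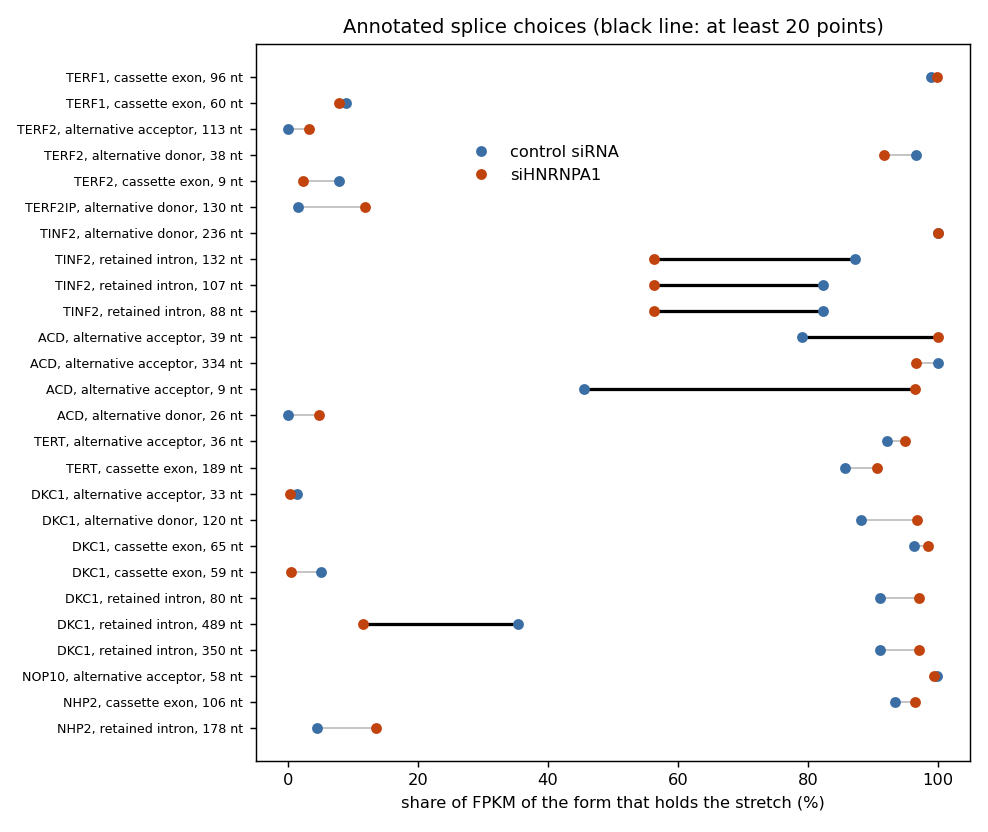
For each annotated splice choice with at least 5 FPKM in both libraries, the share of FPKM (%) in forms that hold the stretch, 1 point per library joined by a line, black where the difference is at least 20 percentage points. The longest line is the 9-base acceptor of ACD, from 45.5% in the control to 96.5% after siHNRNPA1.

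The share of a gene's FPKM in transcripts annotated as protein-coding could differ only for the genes that also have other entries with values. TERF1, TINF2, NOP10 and NHP2 have none, and their share is 100% by construction. Among the others with at least 5 FPKM in both libraries, TERF2IP had a coding share of 88.1% after siHNRNPA1 and 98.5% after sicontrol. This difference rests on TERF2IP-203, an entry of 639 bases with 14 and 4 counts. In counts that entry made up 3.92% and 0.594% of the gene. The coding share was 95.4% and 100% for ACD, 93.7% and 97.6% for TERF2, 98.2% and 93.6% for DKC1, and 94.9% and 92.1% for TERT. Entries absent from GENCODE were left out of the coding share, among them a TERT entry with 4.46% and 6.17% of the gene's FPKM. Over all 5715 genes, 9.52% had a coding share lower by 5 percentage points or more and 11.7% one higher by as much.

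Genes that work with shelterin and telomerase were taken from 4 lists of 52 genes, of which 48 had a mean FPKM of at least 1. Of these 12 were lower by 2-fold or more and 4 were higher (25.0% and 8.33%), against 21.9% and 12.4% of all genes. Telomere replication, end processing and shelterin partners held most of the lower genes, 10 of 24, with 1 higher and a median of -0.75. TNKS2, a tankyrase that releases TERF1 from telomeres, had 2.90 FPKM after siHNRNPA1 and 16.1 after sicontrol (log2 fold -2.14). ATRX, a chromatin remodeller that acts at telomeres, had 1.92 and 8.30 FPKM (-1.67), and ZBTB48, a telomere-binding zinc finger protein (TZAP), was the higher gene at 23.9 and 6.50 FPKM (1.73). Set against their nearest genes, the 24 had a median of -0.07, with 1 lower by 2-fold or more and 1 higher. The shares of all genes were 8.35% and 8.11% by this measure. TNKS2 stood at -0.77, ATRX at -0.23 and ZBTB48 at 1.17.

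Telomerase assembly, processing and trafficking genes held 1 of 15 at least 2-fold lower (6.67%, against 21.9% of all genes) and 2 higher (13.3%, against 12.4%), with a median of 0.07. TOE1, a deadenylase that trims telomerase RNA, had 17.1 FPKM after siHNRNPA1 and 2.63 after sicontrol (log2 fold 2.32). TENT4B (listed as PAPD5), which adds adenosines to that RNA, had 0.479 and 5.49 FPKM (-2.13). Both stayed beyond 2-fold against their nearest genes, at 1.87 and -1.53, though TENT4B was at -0.94 with a pseudocount of 5 FPKM, and they act in opposite directions on the RNA's 3′ end. The telomerase inhibitor PINX1 stood at 1.05 (0.53 after the subtraction, 0.92 by TPM), and GAR1, which completes the H/ACA core with DKC1, NOP10 and NHP2, had 45.8 and 31.4 FPKM (0.53). GAR1, and HMBOX1 of the list before, were named after their values were seen.

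In the CST complex, which works with DNA polymerase alpha at telomeres, CTC1 had 6.26 FPKM after siHNRNPA1 and 2.57 after sicontrol (log2 fold 1.02, 1.70 after the subtraction) and STN1 7.48 and 9.94 FPKM (-0.37). TEN1 was below the minimum. Of 7 hnRNP class genes listed for proteins that bind TERRA or telomerase RNA, 1 was at least 2-fold lower (14.3%, against 21.9% of all genes). None was at least 2-fold higher, against 12.4% of all genes. The lower gene was HNRNPK (149 and 358 FPKM, -1.26), and HNRNPU (-0.53) and HNRNPF (-0.44) followed. The list median was -0.30 and went to -0.58 after the subtraction, where HNRNPK stood at -0.84. None of the list was then past 2-fold, against 8.35% of all genes below and 8.11% above.

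**Figure D5:**
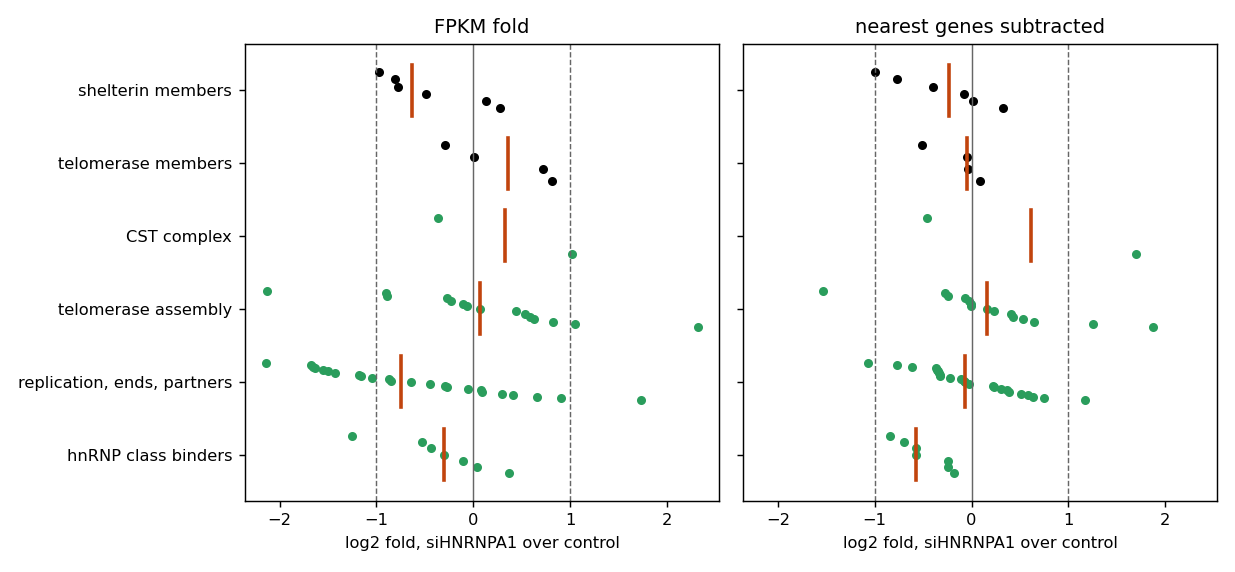
Log2 fold of each measured gene in the shelterin and telomerase sets (black) and in 4 lists of related genes (green), by FPKM (left) and after subtraction of the nearest genes (right), with list medians as orange bars and 2-fold dashed. The 10 genes of the replication, ends and partners list that lie at or below -1 at the left all lie within 2-fold at the right, where the 1 gene below -1 is HMBOX1 (-1.07), at -0.45 at the left.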

How the data were processed

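RNA-seq libraries of H9 cells, 1 per condition, were analysed from the deposited table of 95139 transcripts. Per the file headers, the authors' values for each transcript are counts, TPM and FPKM. The deposited counts are whole numbers, but 985 of 7401 counts of 1 had an FPKM under 0.001, so they were treated as estimated counts. How reads were aligned and assigned to transcripts is not given in the sources used here. Builds listed in the submitters' processing notes are of mouse (GRCm38, mm10), whereas the table's identifiers are human. Of 64 member transcripts 63 are in GENCODE release 29 (GRCh38), 60 of them at the same position. ACD-215 was not among these 60, nor were TINF2-205 and TINF2-213, which were listed at 0 in both libraries. A further 6 value columns belong to neither library and were not analysed here.

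Values were summed per gene identifier in Python 3.11.15 with pandas 2.3.3, NumPy 2.4.6 and SciPy 1.17.1, with a pseudocount of 1 FPKM. Intervals (95%) for levels are exact Poisson intervals of a gene's total count, scaled by its FPKM per count. They are exact conditional for count ratios and Clopper-Pearson for shares. Transcript types, exons, coding parts and sequences came from GENCODE. A splice choice compares the transcripts that hold an exon, an intron or the longer of 2 splice-site variants with those that lack it. Retained introns and alternative splice sites were added after the data had been seen. The computation was tested on simulated data with known folds.

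All 10 genes and HNRNPA1 are named, with the 3 genes of largest absolute fold in each list and member transcripts of at least 1 FPKM in either library where the results turn on them. The members and lists were chosen with earlier results of these data known. Alternatives were the pseudocount, scaling, filter, unit and the subtraction of nearest genes.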

Additional observations from a re-analysis of the deposited data

How the results depend on the processing

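No paired analysis was possible because each condition has 1 library. For the 10 genes, none was at least 2-fold higher under any of the 8 alternatives. The number at least 2-fold lower was 0 with a pseudocount of 5 FPKM, median ratio scaling, no filter, a minimum of 5 FPKM and subtraction of nearest genes. It was 1 with a pseudocount of 0.1 FPKM (POT1), 1 in CPM (POT1) and 2 in TPM (POT1 and TERF2IP). All 10 genes passed the main filter, so dropping it could change nothing for them. A minimum of 5 FPKM removed POT1, whose mean was 3.69 FPKM, so that POT1 was not counted there. Scaling moved the median log2 fold of all genes from -0.13 to 0.00053 by the median ratio and to -0.28 in TPM, and the TERF2 fold to -0.0040 and the TERT fold to -0.13 in TPM. Of the 48 related genes, 12 lower and 4 higher became 2 and 2 with a pseudocount of 5 FPKM, 7 lower with a minimum of 5 FPKM and 2 lower after subtraction of nearest genes. Among named genes, ATRX, TENT4B, CTC1 and PINX1 were within 2-fold with a pseudocount of 5 FPKM (-0.94, -0.94, 0.57 and 0.92). The HNRNPA1 fold of -1.88 was -2.03 in TPM. Of member transcripts, 8 lower and 4 higher became 3 and 1 with a pseudocount of 5 FPKM. The genes with a changed transcript share numbered 4 by FPKM and 4 by counts, 6 at 10 percentage points and 5 with a minimum of 1 FPKM. Retained introns and splice sites past 20 points numbered 6 by FPKM, 5 by counts (the 39-base acceptor of ACD dropping to 15.4 points) and 7 with a minimum of 1 FPKM, where POT1 was added. Shares over all features were computed at the main settings and, for genes, after subtraction of nearest genes only. The counts under the other alternatives thus have no background to be read against. Depth limited POT1 most, with a half-width of the log2 count ratio of 0.31.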
